A study of Mus musculus with 3 samples.

Results

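The genes described here encode proteins of mineralised bone matrix and of the osteocyte, the bone cell that lies buried in that matrix. The rule named 10 genes: the SIBLING family (small integrin-binding ligand, N-linked glycoproteins: Spp1, Ibsp, Dmp1, Dspp and Mepe), the osteocyte genes Phex, Sost, Fgf23 and Pdpn, and the osteocalcin gene Bglap. Their probe sets were taken by symbol in the platform annotation, whatever their signal, but the genes were chosen with earlier results of these data known. Of the 10, 8 had a named probe set, among 18193 genes with a probe set of a single symbol. These 8 genes had 13 probe sets, of which 0 listed several symbols. Spp1 and Bglap had no probe set under their symbols and are not analysed here. Cspp1 and Sostdc1 only share letters with a member and were left out.

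RNA came from C57BL/6 mouse cells that the labels call endosteal, from the inner bone surface, while the source field names bone marrow. Collagenase freed the cells from pieces of femur and tibia, cells bearing CD45, CD31 or Ter119, which mark blood, endothelial and erythroid cells, were removed, and the rest was sorted by PDGFRα, a growth factor receptor of mesenchymal cells, and Sca-1, a surface protein of many progenitors. All 3 sorted groups therefore share the same strain and the same depletion, and differ in the gate: PDGFRα(−)Sca-1(−), called double-negative below; PDGFRα(+)Sca-1(−), called single-positive; and PDGFRα(+)Sca-1(+), called double-positive. The age and number of the animals and any pooling are not stated in the sources used here. Each population was hybridised to 1 array, so no difference below has a replicate check, and no p-value or SD between samples can be given.

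SIBLING proteins are acidic, phosphorylated proteins that bind integrins and mineral. Ibsp (bone sialoprotein) is made by osteoblasts and hypertrophic chondrocytes, Dmp1 (dentin matrix protein) and Mepe mainly by osteocytes, and Dspp mainly by the odontoblasts of teeth. Phex is a membrane endopeptidase and Fgf23 a hormone, both of phosphate balance, Sost encodes sclerostin, a secreted Wnt antagonist of mature osteocytes, and Pdpn encodes podoplanin, a membrane mucin of early osteocytes that fibroblasts and lymphatic endothelium also make.

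The values are probe set signals, the linear brightness summed over the probes of a set. A floor of 93.2, the mean of the 3 array medians, stood in for detection calls. A signal under it is read as not measured, and signals under it have no order. A difference was counted where the ratio was 2-fold or more. With 1 array under the floor, the ratio is a bound, written "at least". Ibsp, Dmp1 and Phex were bright in single-positive cells and dimmer in both other populations. Pdpn lay above the floor on all 3 arrays with its highest signal in double-positive cells. Dspp, Mepe, Sost and Fgf23 were under the floor on all 3.

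**Figure D1:**
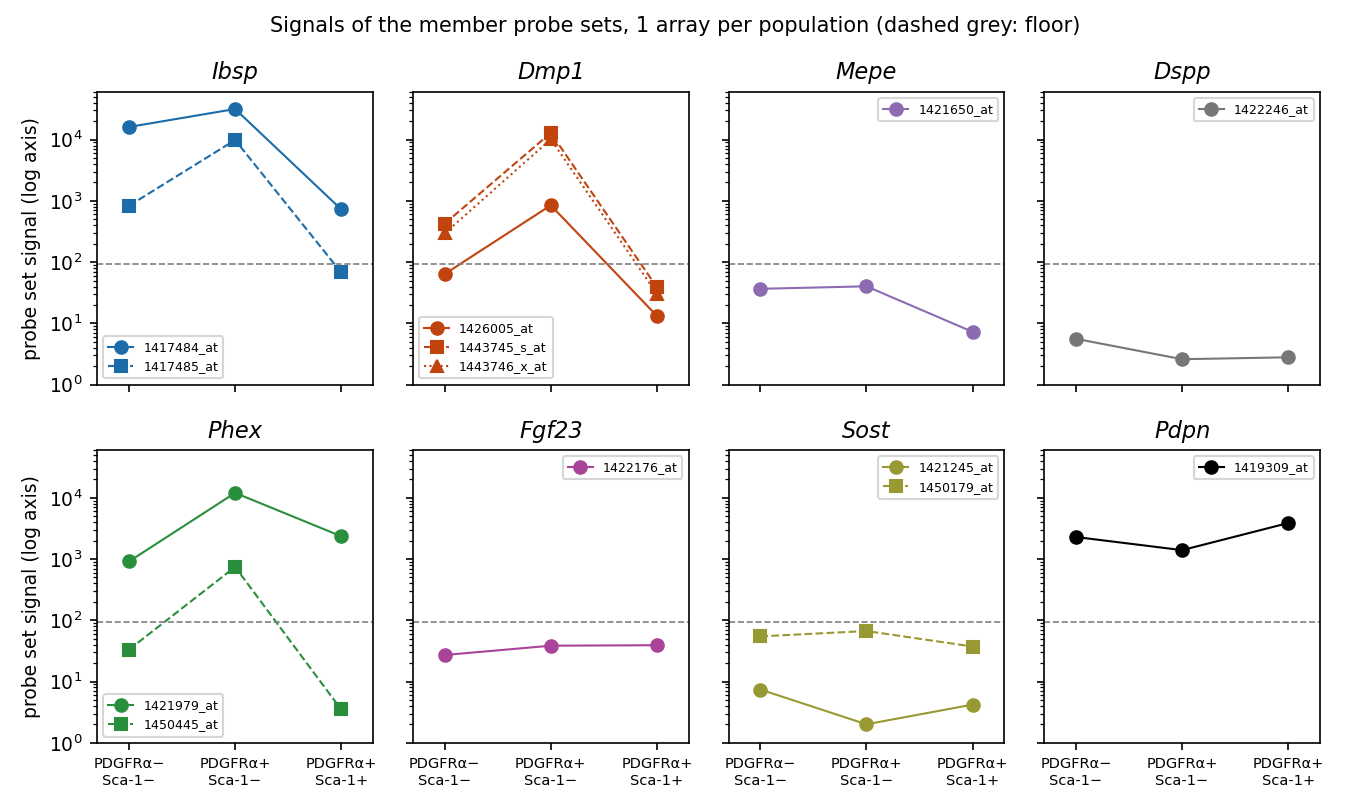
Signal of each of the 13 member probe sets (log axis) on the arrays of double-negative, single-positive and double-positive cells, 1 point per array, with the floor of 93.2 dashed. The 7 probe sets of Ibsp, Dmp1 and Phex are highest in single-positive cells, Pdpn is highest in double-positive cells, and the 5 probe sets of Mepe, Dspp, Fgf23 and Sost lie under the floor throughout.

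Ibsp had 2 probe sets, both designed on the same transcript record. The signal of probe set 1417484_at was 16112 in double-negative cells, 31665 in single-positive cells and 728 in double-positive cells. The signal of probe set 1417485_at was 834, 9861 and 67.9 in the same order. Both were highest in single-positive cells and lowest in double-positive cells, where 1 of the 2 fell under the floor. The probe sets did not give the same step between the Sca-1− populations: single-positive exceeded double-negative cells 1.97-fold by 1417484_at, just inside the 2-fold threshold, and 11.8-fold by 1417485_at. The gap on the log2 scale was 2.59, a difference between 2 probe sets. The SD of probe sets around the mean of their own gene in that comparison, taken over 4548 genes, was 0.37, which is not the spread of a difference. The brighter probe set reached 82.1% of the highest signal on the single-positive array, where saturation can compress a ratio. Against single-positive cells, double-positive cells were 43.5-fold lower by 1417484_at and at least 106-fold lower by 1417485_at.

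Dmp1 had 3 probe sets. The signal of 1443745_s_at was 426 in double-negative cells, 12889.9 in single-positive cells and 39.1 in double-positive cells. That of 1443746_x_at was 295, 10139 and 30.5, and that of 1426005_at, from another transcript record, was 64.0, 848 and 13.3. All 3 were above the floor in single-positive cells and under it in double-positive cells, and 1426005_at was also under it in double-negative cells. The suffixes mark probe sets that may bind related transcripts (_s_at) or hold probes shared with other sequences (_x_at). single-positive exceeded double-negative cells 30.3-fold by 1443745_s_at, 34.3-fold by 1443746_x_at and at least 9.10-fold by 1426005_at. Among the 21007 probe sets above the floor on both of these arrays, 1443746_x_at held rank 1 and 1443745_s_at rank 2 for the ratio in favour of single-positive cells. double-positive were at least 138-fold, 109-fold and 9.10-fold lower than single-positive cells by the same 3 probe sets.

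Mepe and Dspp, the other SIBLING genes with a probe set, gave no comparison. The Mepe signal was 36.7 in double-negative, 40.3 in single-positive and 7.29 in double-positive cells. The Dspp signal was 5.60, 2.60 and 2.80. Both stayed under the floor on every array, and nothing can be read from their order. Of all 45037 probe sets, 42.3% were under the floor on all 3 arrays, so such a signal was common on this platform.

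The SIBLING genes lie next to each other on chromosome 5 in the RefSeq table of assembly GRCm38.p6, in the order Dspp, Dmp1, Ibsp, Mepe and Spp1, with 1 long noncoding RNA gene between Dmp1 and Ibsp. Dmp1 and Ibsp shared their peak in single-positive cells, whereas their neighbours Dspp and Mepe were under the floor. Sparcl1, a matricellular gene on the Dspp side of the cluster, had a signal of 990 in double-negative, 496 in single-positive and 6373 in double-positive cells, so it was lowest where Dmp1 and Ibsp were highest. Thoc2l, beyond Spp1, had signals of 145, 96.5 and 38.7.

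**Figure D2:**
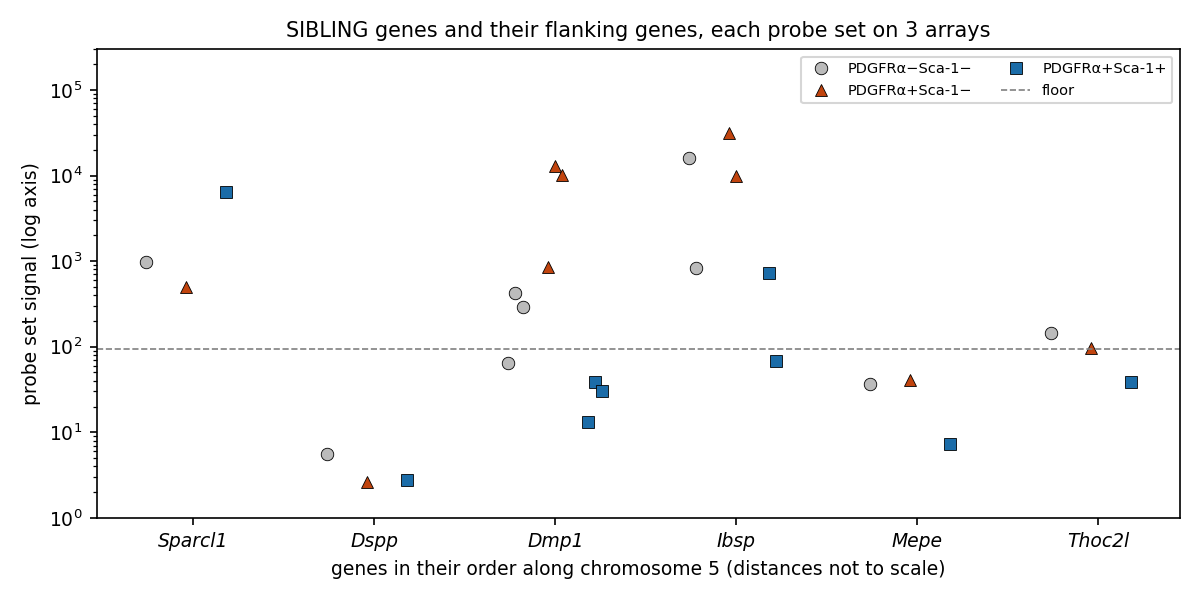
Probe set signals (log axis) on the 3 arrays for the SIBLING genes and flanking genes, placed in chromosomal order but not to scale. The points of each gene are grouped by population, with its probe sets set slightly apart. Dmp1 and Ibsp are highest in single-positive cells (triangles), Sparcl1 is highest in double-positive cells (squares), and Dspp and Mepe lie under the dashed floor of 93.2.

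Phex had 2 probe sets from the same transcript record. The signal of 1421979_at was 913 in double-negative, 12019.8 in single-positive and 2353 in double-positive cells. The signal of 1450445_at was 33.2, 743 and 3.50. Both were highest in single-positive cells, and the dimmer probe set was above the floor there only. single-positive exceeded double-negative cells 13.2-fold by 1421979_at, rank 9 of the 21007 probe sets measured on both arrays, and at least 7.98-fold by 1450445_at. double-positive were 5.11-fold lower than single-positive cells by 1421979_at and at least 7.98-fold lower by 1450445_at. Unlike Ibsp and Dmp1, Phex was higher in double-positive than in double-negative cells by its brighter probe set, 2.58-fold, while the other probe set was under the floor in both.

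Fgf23 and Sost, the secreted signals of mature osteocytes, were not measured above the floor. The Fgf23 signal was 27.1 in double-negative, 38.4 in single-positive and 39.2 in double-positive cells. The Sost probe sets gave 7.40, 2.00 and 4.20 by 1421245_at and 54.6, 66.8 and 37.3 by 1450179_at. The signals therefore held the osteocyte matrix gene Dmp1 and the endopeptidase gene Phex without a readable signal for sclerostin or Fgf23, and a floor set from array medians cannot show that these transcripts were absent.

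Pdpn was the member with another pattern. Its signal was 2287 in double-negative, 1396 in single-positive and 3866 in double-positive cells, above the floor throughout and lowest in the population where Ibsp, Dmp1 and Phex were highest. double-positive were 2.77-fold higher than single-positive cells, while the log2 ratio of single-positive over double-negative cells was −0.71 and that of double-positive over double-negative cells 0.76, both within 2-fold. Pdpn had only 1 probe set, so this order has no second reading. The marker genes of lymphatic endothelium, another source of podoplanin, were near or under the floor: of 4 with a probe set (Prox1, Lyve1, Flt4 and Mmrn1), 1 was above it in double-negative, 0 in single-positive and 0 in double-positive cells, with summed signals of 225, 144 and 217. Fibroblast markers were high where Pdpn was highest, with 6 of 6 above the floor in double-positive cells and a summed signal of 82895, against 5009 in single-positive and 1122 in double-negative cells; their part in the Pdpn signal was not tested.

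Set side by side, the comparisons count as follows. Between double-positive and single-positive cells, 8 of the 13 member probe sets could be compared, of which 7 were lower in double-positive cells and 1, that of Pdpn, was higher. Of these 7, 1417485_at of Ibsp, 1450445_at of Phex and every Dmp1 probe set were under the floor in double-positive cells. Those entered the comparison through their single-positive signal alone and could not have been called higher. Over all 25010 probe sets compared, 12.5% were lower and 13.1% higher by the same rule. Between single-positive and double-negative cells, 6 of 8 were higher in single-positive cells, 0 lower and 2 within 2-fold, against 4.96% of 24533 probe sets higher and 4.71% lower. Between double-positive and double-negative cells, 6 could be compared, of which 4 (those of Ibsp and Dmp1) were lower in double-positive cells, 1 (Phex) was higher and 1 (Pdpn) was within 2-fold, against 24.8% of 24884 past the threshold in either direction. With the floor raised to the 67th percentile of the signals, both Dmp1 bounds in that comparison lay within 2-fold and the count past the threshold fell from 5 to 3. By the stricter description of a peak, 6 member probe sets were 2-fold or more higher in single-positive cells than in both other populations, as were 2.77% of the 25987 probe sets above the floor on at least 1 array. These comparisons share arrays pairwise, the 6 probe sets belong to 3 genes, and the other 5 probe sets entered no comparison. All 6 were above the floor in single-positive cells, and 2 of them, 1426005_at of Dmp1 and 1450445_at of Phex, in those cells only.

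**Figure D3:**
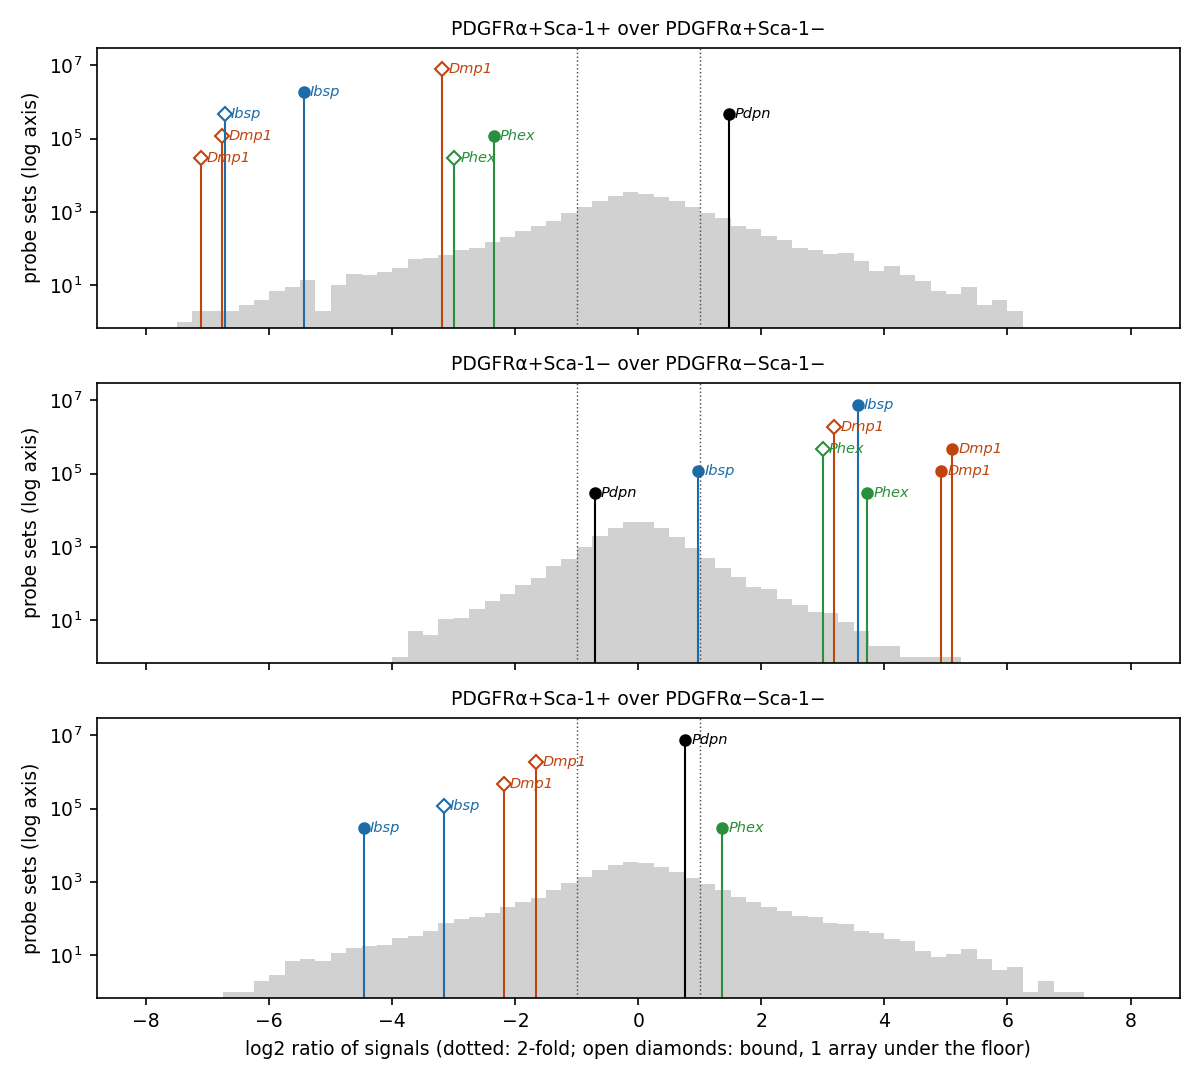
Distribution of the log2 ratio over all compared probe sets (grey, log count axis) for the 3 pairs of populations, with each member probe set as a coloured pin whose height carries no value; open diamonds are bounds and dotted lines mark 2-fold. Ibsp, Dmp1 and Phex lie on the single-positive side in the upper and middle panels except 1 Ibsp probe set within 2-fold, and Pdpn lies on the other side of zero.

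Some measured properties moved with this pattern and others did not. PDGFRα itself had its highest transcript signal in double-positive cells, with Pdgfra at 586, 2420 and 12846 in double-negative, single-positive and double-positive cells, so the Ibsp, Dmp1 and Phex peak did not follow the Pdgfra level. The 6 osteoblast markers with a probe set were all above the floor in both Sca-1− populations and 5 of 6 in double-positive cells, with summed signals of 54861 in double-negative, 92909 in single-positive and 44124 in double-positive cells. Col1a1 and Col1a2, at 14417 and 28323, held most of the double-positive sum, and the other 4 (Sp7, Alpl, Ifitm5 and Pth1r) were all 2-fold or more lower there than in single-positive cells (median log2 ratio of the 6 −3.20). The 5 markers of hypertrophic chondrocytes other than Ibsp and Spp1 (Col10a1, Ihh, Panx3, Mmp13 and Pth1r) summed to 30987, 71746 and 2039 in the same order, with Col10a1 at 5071, 24355 and 272. They were thus highest where Ibsp was highest, Pth1r also stands among the osteoblast markers, and their part in the Ibsp, Dmp1 and Phex signals was not tested. Of 8 general cartilage markers, 7 were within 2-fold between the Sca-1− populations, and Matn1 was higher in single-positive cells, at 18704 against 2331. Bright markers among the 7, such as Col9a1 at 35539.5 in double-negative and 35154.7 in single-positive cells, lie where saturation can compress a ratio. The sums over the 8 were 167467 and 180265, and 39643 in double-positive cells, so cells labelled endosteal gave strong cartilage signals. Of 9 osteoclast markers, 2 were above the floor in double-negative, 3 in single-positive and 4 in double-positive cells, with summed signals of 5481, 4856 and 13295, mostly from Ctsk, while Calcr, Oscar, Ocstamp, Dcstamp and Mmp9 were under it on all 3. Macrophage markers summed to 1759, 2786 and 1244, of which Cd14 gave 1011, 1960 and 367, with 5, 5 and 4 of 8 above the floor. The sums for blood endothelium (6 markers) were 244, 333 and 1177, and Tek gave 888 of the double-positive sum. Tek was under the floor in the other populations, and Pecam1, Cdh5 and Emcn were under it on all 3 arrays. The sums for pericytes and smooth muscle (6) were 16518, 13596 and 6511, and for adipocytes and reticular stroma (6) 7640, 7254 and 30589. Each of these lists had at least 1 marker above the floor on every array. Single markers ran against these sums: the pericyte marker Rgs5 was highest in double-positive cells (185, 168 and 1503), while Cspg4 was at 10083 in single-positive and 2059 in double-positive cells. The reticular sum was highest in double-positive cells with Cxcl12 (435, 1385 and 21288), while Foxc1 (6447, 4470 and 2869) was lowest there. Adipoq (79.5, 294 and 58.4) was above the floor in single-positive cells only. Erythroid markers (6 with a probe set) summed to 7336, 2252 and 1311, mostly from Tfrc (6574, 1752 and 1063), with 4, 5 and 1 above the floor. Neutrophil precursor markers (8) summed to 631, 3115 and 2748, and lymphoid markers (5) to 140, 173 and 173, the last with 0 above the floor on any array. The signal ratio of the 3' to the 5' control probe set was 2.99, 2.63 and 4.65 for Actb in double-negative, single-positive and double-positive cells. For Gapdh the same ratio was 3.93, 3.54 and 4.73. The part of this ratio in the low double-positive signals was not tested. In such bulk RNA, fewer cells of a type and less RNA per cell cannot be told apart.

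Promoters are shown for the genes that peaked in single-positive cells and, for contrast within the SIBLING cluster, for Mepe, which stayed under the floor. RefSeq (GRCm38.p6) held 11 windows of 250 bases before to 50 after a transcript start for 9 of the 10 named genes. Each window is printed 5′ to 3′ on the gene's strand, and the capitals mark the RUNX core TGTGGT, or its reverse complement, the core site of the RUNX transcription factors that act in osteoblasts. The first Dmp1 start lies at chr5:104197325-104197624, plus strand, the second at chr5:104202367-104202666, plus strand, Ibsp at chr5:104299037-104299336, plus strand, Mepe at chr5:104325079-104325378, plus strand, and Phex at chrX:157415237-157415536, minus strand.
Dmp1, first start: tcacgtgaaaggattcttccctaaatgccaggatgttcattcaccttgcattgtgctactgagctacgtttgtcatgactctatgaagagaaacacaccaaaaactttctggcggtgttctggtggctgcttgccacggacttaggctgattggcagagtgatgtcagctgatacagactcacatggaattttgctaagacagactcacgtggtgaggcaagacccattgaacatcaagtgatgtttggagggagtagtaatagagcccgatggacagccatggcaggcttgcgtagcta
Dmp1, second start: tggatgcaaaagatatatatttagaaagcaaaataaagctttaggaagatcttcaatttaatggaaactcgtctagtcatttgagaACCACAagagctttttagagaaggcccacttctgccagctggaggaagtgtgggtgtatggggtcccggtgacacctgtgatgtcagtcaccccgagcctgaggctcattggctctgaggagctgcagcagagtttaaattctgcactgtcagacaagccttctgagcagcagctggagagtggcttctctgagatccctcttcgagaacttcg
Ibsp: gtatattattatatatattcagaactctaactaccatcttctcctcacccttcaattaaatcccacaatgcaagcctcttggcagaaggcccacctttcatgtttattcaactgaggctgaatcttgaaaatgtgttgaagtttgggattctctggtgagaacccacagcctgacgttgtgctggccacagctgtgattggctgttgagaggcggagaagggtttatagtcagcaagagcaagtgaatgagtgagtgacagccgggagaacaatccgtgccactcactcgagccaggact
Phex: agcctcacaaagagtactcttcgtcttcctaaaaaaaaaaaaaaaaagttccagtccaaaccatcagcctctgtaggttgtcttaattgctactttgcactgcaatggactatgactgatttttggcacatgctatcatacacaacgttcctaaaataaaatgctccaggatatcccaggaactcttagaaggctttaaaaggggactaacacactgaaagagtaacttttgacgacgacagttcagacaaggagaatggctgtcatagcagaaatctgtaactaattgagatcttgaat
Mepe: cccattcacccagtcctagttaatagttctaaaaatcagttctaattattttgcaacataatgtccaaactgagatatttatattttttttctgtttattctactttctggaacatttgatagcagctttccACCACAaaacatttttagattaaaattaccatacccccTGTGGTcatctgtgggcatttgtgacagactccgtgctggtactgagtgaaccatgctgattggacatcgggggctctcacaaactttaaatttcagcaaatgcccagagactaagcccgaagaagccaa

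The RUNX core was found in 4 of the 11 windows: the second Dmp1 start (bases 87 to 92 of the window), Mepe (bases 133 to 138 and 171 to 176), Spp1 and Bglap. It occurs in 16.8% of all 32851 promoter windows. The Ibsp, Phex and first Dmp1 windows held none, so the genes that peaked together did not share this short motif near their starts, and Mepe held 2 copies without a signal above the floor. The Ibsp window held the letters of a TATA box (TATAAA, in 13.6% of all windows) at bases 223 to 228, a CCAAT box (CCAAT, 37.4%) and 1 homeodomain core (TAATTG, 8% of all windows), each as its reverse complement on the gene's strand; the last is the type of site that DLX and MSX factors bind. The Phex window held 2 homeodomain cores and neither box. E-boxes (CANNTG) were in all 5 printed windows and in 72.3% of all windows, and the AP-1 site TGANTCA (7.81%) was in none of the 11. All 6 motifs were searched on both strands, and a CCAAT box overlapped a homeodomain core in the Bglap window only. A match of letters is not a bound site.

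Among genes of the wider pathway, from lists chosen with results of these data known, the first holds other osteocyte genes. All 13 could be compared, and 6 were higher in single-positive than in double-negative cells, 0 lower and 7 within 2-fold (median log2 ratio 0.31, against −0.03 over 11675 genes, of which 4.82% were higher and 5.63% lower). Irx5, a homeobox gene, had a signal of 388 in double-negative, 3156 in single-positive and 171 in double-positive cells, 8.14-fold higher in single-positive than in double-negative cells and 18.5-fold lower in double-positive than in single-positive cells. Fam20c, the kinase that phosphorylates SIBLING proteins, was 2.55-fold higher in single-positive than in double-negative cells, at 4985 against 1952, and 3.56-fold lower in double-positive than in single-positive cells. Ptprz1, a receptor phosphatase, was 2.53-fold higher in single-positive than in double-negative cells, at 413 against 164, but lay within 2-fold (log2 ratio 0.69) with the floor at the 67th percentile and (0.02) with the mean over its probe sets. With that floor the count higher was 2 in place of 6, and with the mean over probe sets it was 3. Between double-positive and single-positive cells, 2 of the 13 were higher, 5 lower and 6 within 2-fold (median −0.32, against 0.07 over 11855 genes, of which 14.9% were higher and 11.3% lower, the shares to set beside each count of the same comparison below). The count lower was 2 in place of 5 with the floor at the 67th percentile, and also 2 with the mean over probe sets, where the count higher was 1. Capg, an actin-capping protein, was 3.15-fold higher in double-positive cells, and the connexin gene Gja1, at 20152, 24046 and 20469, was within 2-fold in both comparisons by its brightest probe set, although its 6 probe sets spanned log2 ratios between −0.55 and 1.38 for double-positive over single-positive cells. The remaining genes past the threshold here were Mmp14, higher by 2.24-fold, and Dkk1, Ptprz1 and Tnfsf11, lower by at least 2.31-fold, at least 4.44-fold and 2.66-fold, the Ptprz1 bound falling within 2-fold (log2 ratio −0.69) with the raised floor and (−0.02) with the mean over probe sets; like the other genes outside the naming rule in the paragraphs that follow, they are named after their values were seen. Fam20c, Mmp14, Galnt3 and Cd44 stand in more than 1 list, so the lists are not separate results.

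Of 7 genes of phosphate and pyrophosphate handling that could be compared, 5 were lower in double-positive than in single-positive cells, 0 were higher and 2 lay within 2-fold (median log2 ratio −1.09). Alkaline phosphatase (Alpl), which frees phosphate for mineral, was 44.3-fold lower, at 356 against 15795, and the sphingomyelinase Smpd3 was 11.4-fold lower. Galnt3, which glycosylates and protects Fgf23, was 8.85-fold lower by its brightest probe set, but had a log2 ratio of −0.82, within 2-fold, by the other; the first, at 99.7 in double-positive cells, lay just above the floor and its log2 ratio moved from −3.14 to −1.79 with the raised floor. Ank, a pyrophosphate transporter, was 2.12-fold and Fgfr1 2.09-fold lower, the latter within 2-fold (log2 ratio −0.93) when the arrays were scaled to a common median, with which the count lower was 3 in place of 5. Between single-positive and double-negative cells 2 of 7 were higher and 0 lower (median 0.56), against 4.82% higher and 5.63% lower over all genes. The 2 were Alpl, by 3.08-fold, and the FGF receptor gene Fgfr1, by 2.20-fold. The phosphate transporter gene Slc20a1 was within 2-fold in both by its brightest probe set, although its 3 probe sets spanned log2 ratios between −1.04 and −0.32 for single-positive over double-negative cells.

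Transcription factors of bone matrix genes were lower in double-positive than in single-positive cells for 6 of 14 genes compared, higher for 2 and within 2-fold for 6 (median log2 ratio −0.61). Sp7 (osterix), required for osteoblast formation, was 14.0-fold lower, the vitamin D receptor gene Vdr 11.8-fold and Mef2c, which acts on the Sost enhancer, 8.47-fold. Sp7 and Vdr were both at 106 in double-positive cells, just above the floor, and their log2 ratios moved from −3.81 to −2.53 and from −3.56 to −2.28 with the floor at the 67th percentile. The log2 ratio of Atf4 was −0.30, and its 2 compared probe sets gave −0.49 and −0.30. The mean over all Atf4 probe sets, which takes in those under the floor, gave −1.29. The genes higher in double-positive cells were Msx1 (3.50-fold) and Twist1 (2.28-fold). Between single-positive and double-negative cells only Mef2c among the 14 passed 2-fold, at 2.78-fold, while the Sp7 signals of 1479 and 1196 lay close together. This count is near the shares over all genes, of which 4.82% were higher and 5.63% lower. The Vdr ratio in that comparison was 1.95-fold by the brighter of its probe sets, whose log2 ratios ran from 0.97 to 1.26 across the threshold, and that of Hey1, a Notch target, was 1.90-fold the other way. Runx2 is not analysed here.

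Other bone matrix genes divided in the same comparisons. In double-positive against single-positive cells 3 of 11 were lower, 2 higher and 6 within 2-fold (median −0.46), against 11.3% lower and 14.9% higher over all genes. Col11a2 was 38.2-fold and Cthrc1 5.91-fold lower, and the periostin gene Postn was 4.81-fold higher. Ifitm5 was at least 6.02-fold lower and the proteoglycan gene Ogn 2.56-fold higher. The osteonectin gene Sparc, at 38630, 36952 and 27053, was within 2-fold, at brightness where saturation can compress a ratio. In single-positive against double-negative cells 3 of 11 were higher and 1 lower (median 0.39), against 4.82% higher and 5.63% lower over all genes. Lox, a collagen cross-linking enzyme, was 4.89-fold, type I collagen gene Col1a1 3.36-fold and Ifitm5 (bone-restricted ifitm-like protein) 2.86-fold higher. Omd, osteomodulin, was 2.48-fold lower.

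Of the receptors of SIBLING proteins, 2 of 8 were higher in double-positive than in single-positive cells, 0 lower and 6 within 2-fold (median 0.76), counts near the shares over all genes of 14.9% higher and 11.3% lower. The count higher was 4 with the arrays scaled to a common median and 0 with the mean over probe sets, where 1 was lower. Between single-positive and double-negative cells 2 of 8 were higher, 2 lower and 4 within 2-fold (median 0.08), against 4.82% and 5.63% over all genes, and 1 and 1 with the floor at the 67th percentile. Itgb3, the β subunit of the osteopontin receptor αvβ3, had a signal of 67.5 in double-negative, 237 in single-positive and 1819 in double-positive cells. It was 7.68-fold higher in double-positive than in single-positive cells, and it is also an osteoclast marker. Only 1 Itgb3 probe set could be compared there. The mean over all Itgb3 probe sets, which takes in those under the floor on both arrays, gave a log2 ratio of 0.57, within 2-fold. Its partner Itgav, at 10865, 14646 and 10731, was within 2-fold in both comparisons by its brightest probe set, although its 4 probe sets spanned log2 ratios between −1.79 and −0.08 for double-positive over single-positive cells. Itga8 was 4.42-fold lower in single-positive than in double-negative cells and 3.04-fold higher in double-positive than in single-positive cells. The latter log2 ratio was 0.41 by the mean over its probe sets, of which only 1 could be compared. Itgb5 was 2.25-fold higher in single-positive than in double-negative cells. In that comparison Itgb3 was at least 2.54-fold higher and Itga4 at least 2.06-fold lower in single-positive cells. Itga5, the fibronectin receptor subunit, had a ratio of 1.96-fold for double-positive over single-positive cells, just inside the threshold, and past it (log2 ratio 1.11) with a common median.

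Enzymes that process SIBLING proteins and osteocalcin were mixed. Between double-positive and single-positive cells 4 of 16 were higher, 6 lower and 6 within 2-fold (median 0.08), against 14.9% higher and 11.3% lower over all genes. The collagenase Mmp13 was 12.7-fold lower and the transglutaminase F13a1 6.13-fold lower. Those higher were Fam20a (at least 5.55-fold), Pcolce (2.39-fold), Mmp14 and Mmp2 (2.06-fold). The lysosomal protease gene Ctsb, at 18713 in double-positive against 10936 in single-positive cells, was within 2-fold (log2 ratio 0.77) by the brightest probe set, but another of its probe sets reached 3.23. Between single-positive and double-negative cells 4 of 15 were higher, 0 lower and 11 within 2-fold (median 0.13), against 4.82% higher and 5.63% lower over all genes. F13a1 was 3.75-fold, Mmp13 3.70-fold and the proprotein convertase Pcsk5 3.05-fold higher, and Tgm2 had a log2 ratio of 0.13. The 2 Pcsk5 probe sets that could be compared gave log2 ratios of 1.48 and 1.61. The mean over all Pcsk5 probe sets, which takes in those under the floor, gave 0.82, within 2-fold. Fam20c, described above, was also higher. Of 6 podoplanin partners compared, 0 were past 2-fold between single-positive and double-negative cells (median 0.06). Between double-positive and single-positive cells 1 of the 6, the galectin gene Lgals8, was higher, by 2.33-fold with its brightest probe set but with a log2 ratio of −0.75 by the other (median of the list 0.34). The membrane linker Ezr, which binds the podoplanin tail, was within 2-fold, at 1.95-fold lower in double-positive cells, as was the tetraspanin Cd9, with a log2 ratio of −0.62. For single-positive over double-negative cells the log2 ratios were 0.26 for Ezr, 0.22 for Cd9 and −0.16 for Lgals8.

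**Figure D4:**
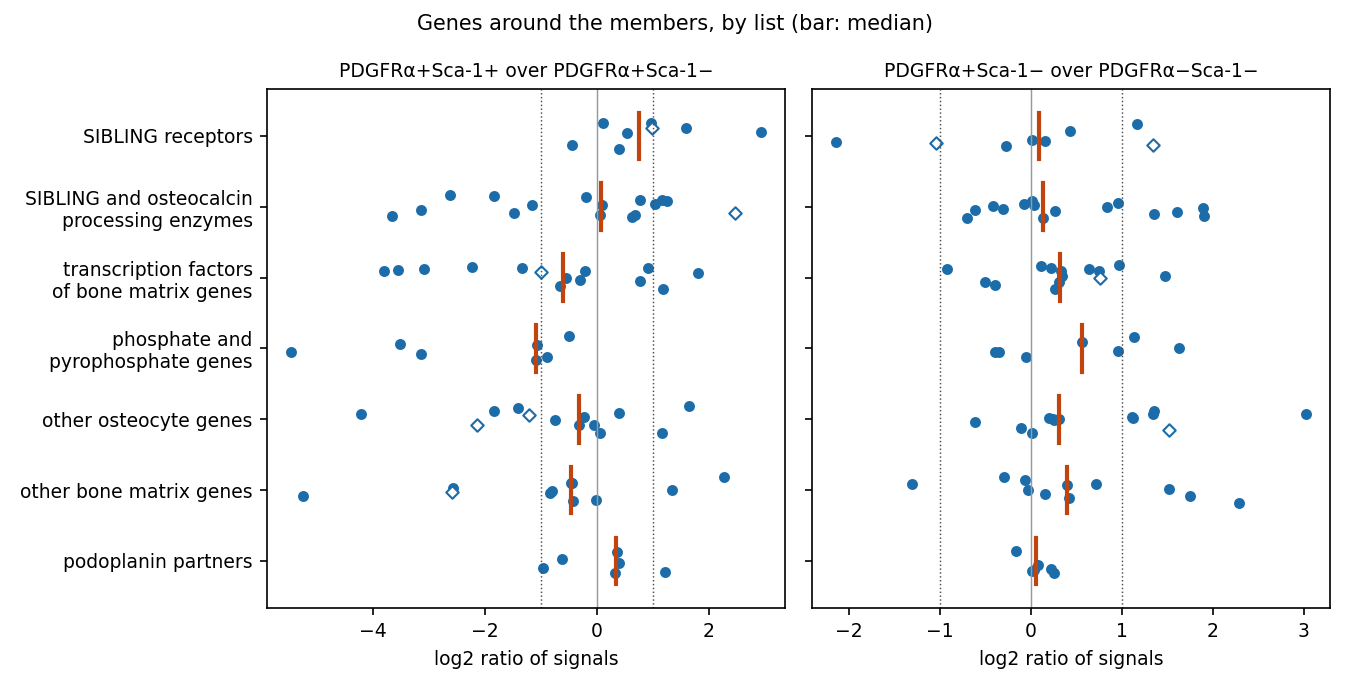
Log2 ratios of the genes in the 7 lists around the members, 1 point per gene, for double-positive over single-positive cells (left) and single-positive over double-negative cells (right); open diamonds are bounds, orange bars are medians and dotted lines mark 2-fold. The phosphate genes have the lowest median on the left, −1.09, and Irx5 is the point at 3.03 on the right.

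The genes whose levels ran most like a member's were found by the Euclidean distance between log2 signals over the 3 arrays, each gene centred on its own mean. Only 3 points define each pattern, so likeness is a description. For Ibsp, the nearest were Tspan13 (distance 0.17), Lmcd1 (0.28) and Fxyd3 (0.32), and 4 of 12210 genes lay within 0.5. For Dmp1 only 1 gene lay within 0.5, the keratin-associated protein gene Krtap17-1 (distance 0.39), with signals of 526, 10867 and 76.9 in double-negative, single-positive and double-positive cells. It was followed at 1.51 by both the kinase gene Wnk4 and the lysyl oxidase relative Loxl4. For Phex the nearest were the retinaldehyde dehydrogenase gene Aldh1a3 (0.35), Slco2b1 (0.38) and the collagen gene Col22a1 (0.41), and 4 genes lay within 0.5. For Pdpn 885 genes did, so its nearest (Atp9b at 0.046, Naa60 at 0.048 and Unc93b1 at 0.051) single out little.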

How the data were processed

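Probe set signals were deposited for 3 arrays, 1 per sorted population. Per the submitters' processing notes, the deposited intensity values were made with MAS5, the array maker's probe set summary; version, detection calls and filters: not given in the sources used here. Per the labels' protocols, RNA was labelled by a two-cycle assay, whose double amplification can favour 3' ends. Here, 64 control probe sets were set aside and each array was scaled to a common mean over the other 45037 after trimming 2% at each end. Signals under the floor of 93.2 were raised to it before log2. No test was possible with 1 array per population. Genes outside the members took their brightest probe set by mean log2; the 932 probe sets with several symbols and 9160 with none were left out. Per list, named genes are the 3 with the largest measured ratios in each of the first 2 comparisons and the brightest within 2-fold; per member, the 3 nearest genes are named, numbered clones passed over. The counting was tested on simulated data. Members and lists were chosen with earlier results of these data known. Alternatives were 33rd and 67th percentile floors, no floor with a pseudocount of 16, 3 other scalings, a 3-fold threshold, probe sets with 1 symbol only, and the mean over probe sets. The mean over probe sets takes in those under the floor. Python 3.11.15, pandas 2.3.3 and numpy 2.4.6 were used.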

Additional observations from a re-analysis of the deposited data

How the results depend on the processing

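Of 19 member ratios past 2-fold, all kept their sign under the 7 alternative floors, scalings and threshold, and 129 of 133 recomputed values stayed past the threshold in the same direction. The exceptions were both Dmp1 bounds for double-positive over double-negative cells with the floor at the 67th percentile (log2 −0.74 and −0.21), and, with a 3-fold threshold, Pdpn for double-positive over single-positive cells (1.47) and Phex for double-positive over double-negative cells (1.37). Bounds move with the floor by construction. A moved floor cannot reverse the sign of a ratio, and a lower floor can only keep or widen it. The 3-fold threshold leaves each ratio unchanged. For these settings the kept signs were therefore fixed in advance. The count of member probe sets past the threshold for double-positive over double-negative cells was 5, and became 3 with the floor at the 67th percentile and 8 with no floor and a pseudocount of 16, which reads signals under the floor. The number of listed genes past the threshold was 35 for double-positive over single-positive, 20 for single-positive over double-negative and 33 for double-positive over double-negative cells, and 21, 8 and 21 at 3-fold, a stricter threshold. Over all genes, 14.9% were 2-fold higher and 11.3% lower in the first comparison, and 4.82% and 5.63% in the second. For the third, 24.8% of probe sets passed in either direction. No share over all genes is given at 3-fold, so these counts show only how they move with the threshold. Restricting to probe sets with 1 symbol could change no member count, since 0 member probe sets list several. No paired analysis was possible because each population has 1 array. Signal over background limits Mepe, Dspp, Sost and Fgf23, and every value is limited by having 1 array per population.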
